A study of Homo sapiens with 4 samples.

Results

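The regulators of the NRF2 pathway were examined in MDA-MB-231 cells, a human breast cancer line, and MDA-MB-435, a human line labelled as melanoma. They comprised 10 genes, NFE2L2, NFE2L1, KEAP1, MAFF, MAFG, MAFK, BACH1, BACH2, OSGIN1 and OSGIN2. The genes were chosen by name, with earlier results of these data known. Each was found once among the 61806 genes of the deposited count table. Each line, wild type by its label, was sequenced as a control culture and as a culture given CPYPP for 6 h, with 1 library per condition and 4 libraries in all. The treatment description gives a dose of 10 µM and mentions MDA-MB-435 alone, so that the cell line of each library was read from its own label. CPYPP is a small molecule known as an inhibitor of DOCK guanine nucleotide exchange factors, and the study uses it to induce paraptosis, a form of cell death with large cytoplasmic vacuoles. How the control cultures were handled beyond the label "control" is not given in the sources used here.

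NRF2, the product of NFE2L2, is a basic leucine zipper factor of the cap-n-collar family that switches on genes for antioxidant and detoxifying enzymes. In resting cells KEAP1 holds NRF2 and presents it to a cullin-3 ubiquitin ligase for degradation, and electrophiles or oxidants that modify KEAP1 let NRF2 accumulate, so that much of its control lies in protein stability rather than in mRNA. In the nucleus NRF2 pairs with a small MAF protein (MAFF, MAFG or MAFK) on antioxidant response elements. BACH1 and BACH2 pair with the same small MAF proteins and repress such genes, BACH1 being best known as the heme-sensitive repressor of heme oxygenase-1. NFE2L1 encodes NRF1, a relative of NRF2 that resides in the endoplasmic reticulum membrane and is known for driving proteasome genes. OSGIN1, which encodes oxidative stress induced growth inhibitor 1, is a known NRF2 target, and OSGIN2 is its paralogue. The libraries measured RNA only, and in bulk RNA fewer cells of a kind and less RNA per cell cannot be told apart.

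Total counts on genes lay between 17196385 and 22663954 per library. With 1 library per condition, the differences have no replicate check among these libraries. The 95% intervals given with fold changes are exact binomial intervals for counting error only. The paper also reports qRT-PCR after CPYPP in both lines, which was not used here. Libraries carried the markers of their labels in part. SOX10, a neural crest and melanocyte factor, had 3031 and 707 counts in the MDA-MB-435 libraries, control first, while the epithelial cadherin CDH1 had 0 counts in both. In MDA-MB-231 cells SOX10 had 0 and 1 counts and CDH1 837 and 464. Of the pigment genes, DCT had 658 and 464 counts in MDA-MB-435 cells and 1 and 3 in the other line. TYR, MLANA and PMEL were at or below 14 counts in MDA-MB-435 cells. PMEL went the other way between the lines, with 34 and 29 counts in MDA-MB-231 cells and 13 and 4 in MDA-MB-435 cells. MLANA was alike, with 8 and 14 counts in MDA-MB-231 cells and 9 and 14 in MDA-MB-435 cells. Of the 7 melanocyte markers, 6 were tested in that line and 1, SOX10, was called lower after CPYPP, where 6.52% of all genes tested were. The summed level of the 7 genes was 159 TPM in the control of that line and 69.2 after CPYPP. TPM are counts divided by exon length and scaled to the same total in every library. In the controls the 6 epithelial markers, CDH1 among them, summed to 1800 TPM in MDA-MB-231 cells and 366 in MDA-MB-435 cells. MDA-MB-435 cells were thus not free of them, and KRT18 had 5740 and 4077 counts there. The 3 mesenchymal markers summed to 1380 TPM in the MDA-MB-231 control and 3495 in the MDA-MB-435 control. In the fit over both lines described further on, 2 of the 5 melanocyte markers tested fell, SOX10 and MITF, where 2.85% of all genes did. The fall of SOX10 rests on MDA-MB-435 alone, given its 0 and 1 counts in MDA-MB-231 cells. MITF had 1585 and 690 counts in MDA-MB-231 cells and 1405 and 809 in MDA-MB-435 cells, with a common log2 fold change of −0.63 (edgeR quasi-likelihood adjusted p = 0.0198). The summed level of these markers was 40.2 and 26.2 TPM in MDA-MB-231 cells. The part of these changes in the regulators' values was not tested.

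To give the sequence context of these genes, the 250 bases before each RefSeq transcription start (GRCh38.p14) were searched on both strands for the core of the antioxidant response element, TGACNNNGC, and for the AP-1 site TGAGTCA, which can overlap such an element. Windows of 8 of the 10 genes were searched. No window was at hand for MAFK, which is named only, and OSGIN2 was left out of the search. The core occurred in 10.9% of all 35116 windows and upstream of 13.2% of the 27305 genes they belong to, and the AP-1 site in 4.2% of windows and upstream of 5.19% of genes. Among the regulators, the core was present upstream of KEAP1, in 2 copies, and of MAFF, and the AP-1 site upstream of OSGIN1 and of BACH1. The windows of NFE2L2, NFE2L1, MAFG and BACH2 held neither. These are letter matches and not measured binding sites. The stretches of 30 bases around the 5 matches are shown because they allow the elements to be compared side by side, each 5′ to 3′ on the gene's strand with the matched letters in capitals. A match to the other strand appears as the reverse complement, as in OSGIN1, MAFF and the nearer KEAP1 match. They lie at chr16:83953132-83953161 (OSGIN1), chr21:29298863-29298892 (BACH1), chr19:10502806-10502835 and chr19:10502783-10502812 (KEAP1, minus strand) and chr22:38201862-38201891 (MAFF). Counted from the start site of that window at 0, the matches begin at −97 (OSGIN1), −48 (BACH1), −54 and −31 (KEAP1) and −122 (MAFF).
OSGIN1: cgggcccctgcTGACTCAcgcttatgaaag
BACH1: cgcggaaggagTGAGTCAcctgaccgctgc
KEAP1, farther from the start: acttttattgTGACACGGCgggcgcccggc
KEAP1, nearer to the start: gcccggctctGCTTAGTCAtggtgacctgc
MAFF: cttccaggggGCGGGGTCAtacgggggcgg

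The longer upstream stretches of OSGIN1 and MAFG are shown because both genes rose in each line by the values given further on, and they differ in these letters. For OSGIN1 the 232 bases run from chr16:83952990-83953221 on the plus strand and end before the annotated exons, with the AP-1 letters in capitals. For MAFG the 250 bases run from chr17:81927736-81927985 on the minus strand, and neither motif is in them. This MAFG stretch also covers the start of MAFG-DT, a divergent noncoding gene on the other strand.
OSGIN1: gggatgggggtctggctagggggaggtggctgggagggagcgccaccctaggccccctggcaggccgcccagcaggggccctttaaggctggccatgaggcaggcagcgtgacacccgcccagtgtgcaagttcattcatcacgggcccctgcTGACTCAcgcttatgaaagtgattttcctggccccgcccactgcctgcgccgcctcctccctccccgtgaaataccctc
MAFG: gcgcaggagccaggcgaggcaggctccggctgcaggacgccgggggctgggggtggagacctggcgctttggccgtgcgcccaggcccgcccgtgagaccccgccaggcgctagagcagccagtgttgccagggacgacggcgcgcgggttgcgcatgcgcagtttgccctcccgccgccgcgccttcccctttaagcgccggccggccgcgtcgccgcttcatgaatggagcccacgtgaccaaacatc

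After CPYPP, OSGIN1 was more than 10-fold higher in both lines, MAFG and BACH1 were over 2-fold higher in both, BACH2 passed 2-fold in MDA-MB-231 cells and OSGIN2 in MDA-MB-435 cells. The transcripts of NRF2 itself and of its inhibitor KEAP1 stayed below 2-fold in each line, and none of the 10 genes was called lower. A gene was called when its fold change, after scaling by TMM effective library sizes, was over 2 and the adjusted p-value of edgeR's binomial test on the reads of the 2 libraries was under 0.05. This test compares libraries, not conditions. In MDA-MB-231, 4 of 10 regulators tested were called higher, where 4.22% of the 16441 genes tested in that line were, and 0 were called lower against 3.09%. In MDA-MB-435, 4 of 9 were called higher, against 3.17% of 16527 genes, and 0 lower against 6.52%. The members were chosen with earlier results of these data known. These counts, and those of the common fit further on, are therefore not independent evidence of a direction. At an unadjusted p-value under 0.05 from the same binomial test, 0 regulators were lower in either line. The split over all genes depends on scaling, and by total counts 370 genes were called higher and 1487 lower in MDA-MB-435 cells, in place of 524 and 1078. BACH2 was not tested in MDA-MB-435 cells, where its counts lie under the minimum of 10.

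**Figure D1:**
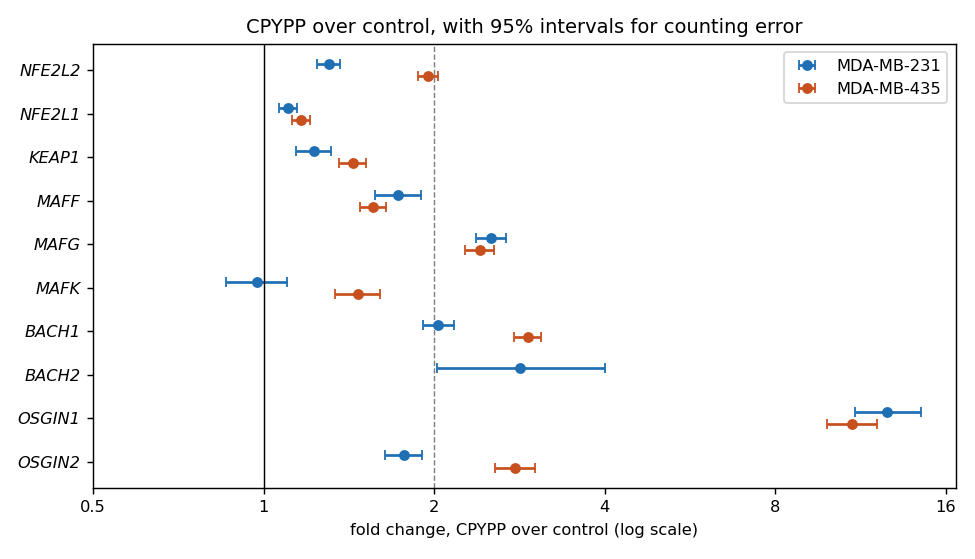
Fold change of CPYPP over control (log scale) for each regulator in MDA-MB-231 cells (blue) and MDA-MB-435 (orange), with bars for the 95% exact binomial interval of counting error, a solid line at 1 and a dashed line at 2. OSGIN1 stands apart at 12.6 and 10.9, and BACH2 has no point in MDA-MB-435 cells, where it had 0 and 1 counts.

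OSGIN1 (ENSG00000140961, chromosome 16, 83931311 to 83966332, GRCh38) had the largest change of the 10 genes in both lines. Its count was 246 in the control and 2274 in the CPYPP library of MDA-MB-231 cells, and 439 and 3718 in MDA-MB-435 cells. Both CPYPP libraries were thus far above both controls. The count rose 12.6-fold (11.1 to 14.4) in MDA-MB-231 cells and 10.9-fold (9.89 to 12.1) in MDA-MB-435 cells, and these intervals overlap. The only gene overlapping or adjoining it by name or position, MLYCD on the same strand, had between 17 and 47 counts and was called in neither line. OSGIN2 (ENSG00000164823, chromosome 8, 89901849 to 89927888) had 1179 and 1525 counts in MDA-MB-231 cells and 873 and 1878 in MDA-MB-435 cells. In MDA-MB-231 cells this was a fold change of 1.77 (1.64 to 1.91), below 2. In MDA-MB-435 cells it was 2.77 (2.56 to 3.01), and the intervals of the lines do not meet. OSGIN2 overlaps NBN on the other strand, which had between 2284 and 3304 counts in the 4 libraries and fold changes of 0.944 in MDA-MB-231 cells and 1.16 in MDA-MB-435 cells.

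Of the small MAF genes, which supply the partner that NRF2 and BACH proteins share, MAFG rose most. MAFG (ENSG00000197063, chromosome 17, 81918270 to 81927735) had 1601 counts in the control and 2955 in the CPYPP library of MDA-MB-231 cells, and 1657 and 3090 in MDA-MB-435 cells. The controls of the lines were close to each other, as were the CPYPP libraries. The count rose 2.52-fold (2.37 to 2.68) in MDA-MB-231 cells and 2.40-fold (2.26 to 2.55) in MDA-MB-435 cells. MAFF (ENSG00000185022, chromosome 22, 38200767 to 38216507) had 802 and 1014 counts in MDA-MB-231 cells, a fold change of 1.73 (1.57 to 1.9). In MDA-MB-435 cells it had 2429 and 2937 counts, a fold change of 1.56 (1.48 to 1.65). The MAFF intervals of the lines overlap, and both lie between 1 and 2. MAFK (ENSG00000198517, chromosome 7, 1530702 to 1543043) had 607 and 432 counts in MDA-MB-231 cells, a fold change of 0.971 (0.857 to 1.10), which includes 1. Its counts of 884 and 1005 in MDA-MB-435 gave 1.47 (1.34 to 1.61).

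Ratios between genes within a library do not depend on how libraries are scaled, and show the same shift among the small MAF genes. MAFG had 2.0 counts for each count of MAFF in the MDA-MB-231 control and 2.91 after CPYPP. In MDA-MB-435 cells the values were 0.682 and 1.05. The ratio thus went up by a factor of 1.46 (1.30 to 1.63, exact conditional interval) and 1.54 (1.42 to 1.67). For MAFG over MAFK the ratio was 2.64 and 6.84 in MDA-MB-231 cells and 1.87 and 3.07 in MDA-MB-435 cells, factors of 2.59 (2.25 to 2.98) and 1.64 (1.47 to 1.83).

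BACH1 (ENSG00000156273, chromosome 21, 29194071 to 29630751), the repressor, rose in both lines. Its count was 1620 in the control and 2412 in the CPYPP library of MDA-MB-231 cells and 1854 and 4201 in MDA-MB-435 cells. The controls were alike, and the CPYPP library of MDA-MB-435 was the highest of the 4. The count rose 2.03-fold (1.91 to 2.17) in MDA-MB-231 cells, so close to 2 that the fold change was below 2 with scaling by total counts or by upper quartile. In MDA-MB-435 cells it rose 2.92-fold (2.77 to 3.09). The gene model of BACH1 contains several small genes. BACH1-IT1, on its strand and inside it, had 15 and 32 counts in MDA-MB-231 cells and 15 and 26 in MDA-MB-435 cells, a fold change of 2.91 and 2.24, and was called higher in both lines. BACH1-IT2, also on its strand, had 13 and 30 counts in MDA-MB-231 cells, a fold change of 3.15, and was called there. LINC00189 and GAPDHP14, on its strand too, had 0 counts in MDA-MB-231 cells. In MDA-MB-435 cells LINC00189 had 107 and 51 counts and GAPDHP14 65 and 31, a fold change of 0.615 for each, and neither was called. BACH1-AS1 on the other strand had between 6 and 14 counts and was not called.

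BACH2 (ENSG00000112182, chromosome 6, 89926528 to 90296843), best known from lymphocytes, was a low-count gene here. It had 53 counts in the control and 110 in the CPYPP library of MDA-MB-231 cells, a fold change of 2.83 (2.02 to 4.01). In MDA-MB-435 cells it had 0 and 1 counts, where a count of 0 allows a level of up to 0.126 CPM (counts scaled to library size) in the control, and no fold change was formed. Its response therefore rests on MDA-MB-231 alone.

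NFE2L2 (ENSG00000116044, chromosome 2, 177218667 to 177392756), the NRF2 gene, had nearly equal counts in the controls of the lines, 3765 in MDA-MB-231 cells and 3788 in MDA-MB-435 cells. After CPYPP it had 3590 and 5732. In MDA-MB-231 cells the lower raw count belongs to the smaller library, and scaling gave a fold change of 1.30 (1.24 to 1.36). In MDA-MB-435 cells it was 1.95 (1.87 to 2.03), just under the threshold, and the intervals of the lines do not meet. KEAP1 (ENSG00000079999, chromosome 19, 10486125 to 10503558), the adaptor that marks NRF2 for degradation, had 1613 and 1448 counts in MDA-MB-231 cells and 2547 and 2835 in MDA-MB-435 cells. Its fold changes were 1.23 (1.14 to 1.32) and 1.44 (1.36 to 1.51). NFE2L1 (ENSG00000082641, chromosome 17, 48048329 to 48061545) moved least among the 3 genes, with 6032 and 4875 counts in MDA-MB-231 cells and 6700 and 6045 in MDA-MB-435 cells. Its fold changes were 1.10 (1.06 to 1.15) and 1.16 (1.12 to 1.20). NFE2L1-DT, the divergent neighbour of NFE2L1, had 46 and 15 counts in MDA-MB-435 cells and was called lower there, a fold change of 0.420 (0.218 to 0.767).

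Within a library, NFE2L2 had 2.33 counts for each count of KEAP1 in the MDA-MB-231 control and 2.48 after CPYPP, a factor of 1.06 whose interval, 0.975 to 1.16, includes 1. In MDA-MB-435 cells the ratio was 1.49 and 2.02, a factor of 1.36 (1.27 to 1.46). Against BACH1 the ratio moved the other way. NFE2L2 over BACH1 was 2.32 in the control and 1.49 in the CPYPP library of MDA-MB-231 cells, and 2.04 and 1.36 in MDA-MB-435 cells. The counts of the activator relative to the repressor were thus lower, changing by a factor of 0.640 (0.592 to 0.693) and 0.668 (0.623 to 0.715), and these intervals overlap.

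**Figure D2:**
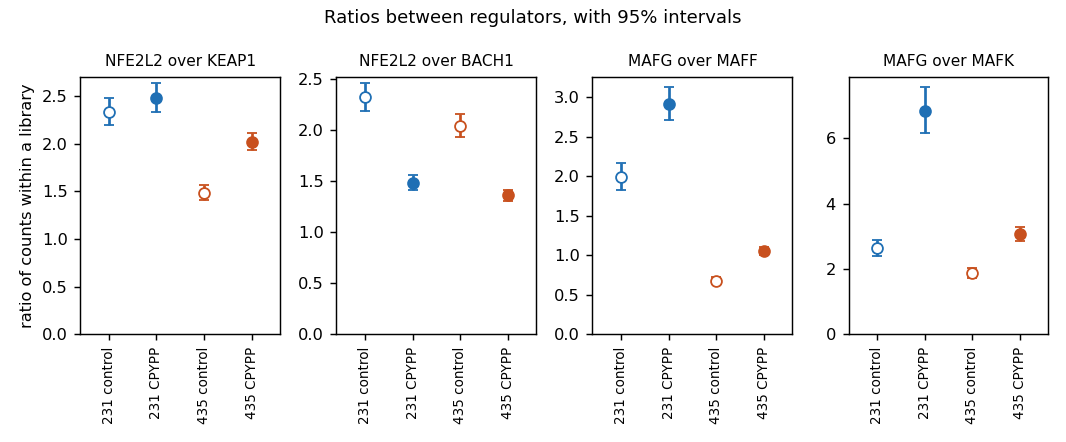
Ratio of the counts of 2 regulators within each of the 4 libraries, open circles for control and filled for CPYPP, with bars for the 95% exact binomial interval. NFE2L2 over BACH1 went from 2.32 to 1.49 in MDA-MB-231 cells and from 2.04 to 1.36 in MDA-MB-435 cells, while MAFG rose relative to MAFF and to MAFK in both lines.

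A common effect of CPYPP was then fitted over the 4 libraries, with the cell line as a block, by edgeR's quasi-likelihood test with Benjamini-Hochberg adjustment over 16801 genes. The treatment was repeated across lines and not within them, so each gene has 1 residual degree of freedom, from how far the responses of the lines lie apart. The test moderates this spread toward a trend fitted over all genes. Its standard errors and adjusted p-values therefore rest largely on that shared trend, and do not measure the variation between cultures of a line. In this fit 6 of the 10 regulators rose at an adjusted p-value under 0.05, where 4.39% of all genes did, and 0 fell against 2.85%. By total counts 843 genes rose and 1087 fell in the whole table, in place of 737 and 478, and the regulators that rose were the same 6. DESeq2 with the same block also gave 0 falls among the regulators, and edgeR gave 0 at an unadjusted p-value under 0.05. OSGIN1 had a common log2 fold change of 3.50 (standard error 0.134, adjusted p = 5.26e-07) and MAFG one of 1.26 (0.111, adjusted p = 0.000151). For BACH1 it was 1.24 (0.131, adjusted p = 0.000533) and for OSGIN2 1.10 (0.152, adjusted p = 0.00239). MAFF followed with 0.67 (0.118, adjusted p = 0.00804) and NFE2L2 with 0.63 (0.135, adjusted p = 0.0203). KEAP1 did not pass, at 0.37 (0.113, adjusted p = 0.0813), nor did BACH2, at 1.54 (0.546, adjusted p = 0.129). For MAFK the value was 0.22 (0.163, adjusted p = 0.501) and for NFE2L1 0.14 (0.107, adjusted p = 0.529). The median over the 10 regulators was 0.88, where the median over all genes fitted was −0.042. Without the block for the line, 0 genes passed in the whole table.

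**Figure D3:**
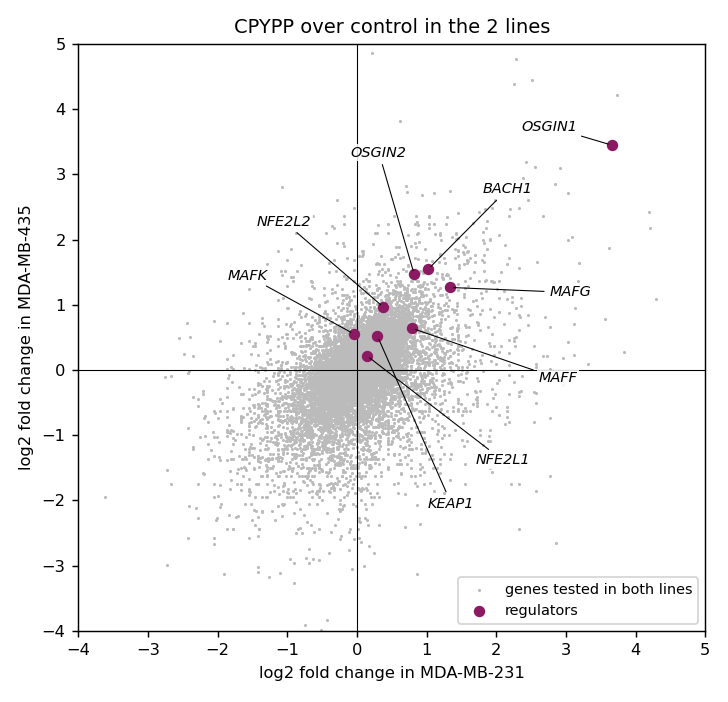
Log2 fold change of CPYPP over control in MDA-MB-231 cells (horizontal) and MDA-MB-435 (vertical) for the 14262 genes tested in both lines (grey) and the 9 regulators among them (purple), with 8 genes outside the axes. OSGIN1 lies at 3.66 and 3.45, MAFG, BACH1 and OSGIN2 lie near 1 or above on both axes except OSGIN2 at 0.82 in MDA-MB-231 cells, and MAFK lies at −0.042 in MDA-MB-231 cells and 0.55 in MDA-MB-435 cells.

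Several regulators overlap genes on the other strand, and how the counting treated strand is not given in the sources used here. NFE2L2 overlaps AGPS, with fold changes of 0.967 in MDA-MB-231 cells and 1.10 in MDA-MB-435 cells, and HNRNPA3, with 0.871 and 0.977. MAFF overlaps PLA2G6, which had 39 and 26 counts in MDA-MB-231 cells and 371 and 150 in MDA-MB-435 cells. MAFK overlaps TMEM184A, which had 219 and 126 counts in MDA-MB-231 cells and 36 and 23 in MDA-MB-435 cells. None of these 4 neighbours was called in either line, the fold change of PLA2G6 in MDA-MB-435 cells being 0.521. ENSG00000213963, inside the NFE2L2 gene model on the same strand, had 221 and 153 counts in MDA-MB-231 cells and 104 and 48 in MDA-MB-435 cells and was called in neither line. SIRT7, which overlaps MAFG on the same strand, had 660 and 606 counts in MDA-MB-231 cells and 911 and 652 in MDA-MB-435 cells.

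How far the responses of the lines differ was not tested. By counting error alone, the intervals of the lines do not meet for NFE2L2, KEAP1, MAFK, BACH1 and OSGIN2. Each of these had the larger fold change in MDA-MB-435. The share of all genes with such separate intervals was not counted, so these genes are not set apart from the rest. Scaling by total counts moved the median log2 fold change of tested genes by −0.070 in MDA-MB-231 cells and −0.15 in MDA-MB-435 cells. The gap between the lines thus depends on scaling. The intervals overlap for NFE2L1, MAFF, MAFG and OSGIN1.

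The levels of the regulators were compared per length, as TPM from the exon lengths of the deposited table. In both controls NFE2L1 was highest, at 182 TPM in MDA-MB-231 cells and 198 in MDA-MB-435 cells, and KEAP1 came next at 80.1 and 124. BACH2 was lowest, at 0.865 and 0 TPM. OSGIN1 was the ninth of the 10 genes in each control, at 7.85 and 13.7 TPM, and the third after CPYPP, at 101 and 141 TPM. After CPYPP it stood above BACH1, which had 77.5 and 116 TPM. NFE2L2 was at 44.6 and 43.9 TPM in the controls and 59.0 and 80.7 after CPYPP. The table gives NFE2L2 an exon length of 14975 bases, the union of all its exons. With the 2853 bases of its principal GENCODE v29 transcript, a choice made after seeing these values, its levels were 234 and 231 in the controls, close to the 224 and 244 of NFE2L1 on the same footing. With those lengths NFE2L2 was the highest of the 10 genes in the MDA-MB-231 control and second in the MDA-MB-435 control, so its place in the order depends on the length used. The lack of replicates leaves no spread by which neighbours in this order could be separated.

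**Figure D4:**
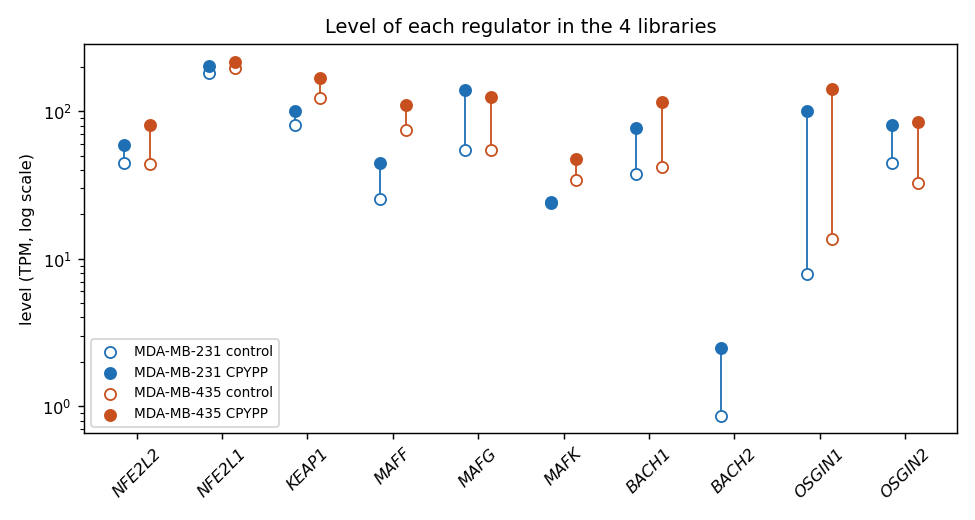
Level of each regulator in TPM (log scale) in the control (open) and CPYPP (filled) libraries of MDA-MB-231 (blue) and MDA-MB-435 (orange), joined by a line within each line. OSGIN1 moves from 7.85 to 101 TPM and from 13.7 to 141, and BACH2 in MDA-MB-435 cells, with 0 and 1 counts, is not drawn.

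The control libraries were then compared. Of the 10 genes, 2 differed over 2-fold between the control libraries, MAFF and BACH2, where 43.1% of the 18269 genes tested between these libraries did. MAFF had 802 counts in MDA-MB-231 cells and 2429 in MDA-MB-435 cells, a fold change of 2.83 (2.61 to 3.06) in favour of MDA-MB-435. BACH2 had 53 counts in MDA-MB-231 cells against 0, a ratio of 18.9 when the 0 is set to 3 counts. The exact binomial interval of the raw counts, 53 against 0, had a lower limit of 14.9-fold in favour of MDA-MB-231. NFE2L2, NFE2L1, MAFG and BACH1 lay between 0.939 and 1.07 in MDA-MB-435 relative to MDA-MB-231. KEAP1 was 1.47-fold (1.38 to 1.57) and OSGIN1 1.67-fold (1.42 to 1.95) higher in MDA-MB-435 cells, while OSGIN2 was 1.45-fold (1.33 to 1.58) higher in MDA-MB-231 cells. The culture, the line and the library cannot be told apart in these differences.

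Other genes of the pathway were taken as lists. Over all genes tested, 4.22% were called higher and 3.09% lower in MDA-MB-231 cells, and 3.17% and 6.52% in MDA-MB-435 cells. In the common fit 4.39% rose and 2.85% fell. Of 14 genes for NRF2 turnover, 1 was called higher and 0 lower in each line, the same gene, SQSTM1 (ENSG00000161011). It encodes p62, an autophagy receptor that binds KEAP1 in place of NRF2. SQSTM1 had 7767 and 17543 counts in MDA-MB-231 cells, a fold change of 3.08 (3.0 to 3.17), and 11261 and 23181 in MDA-MB-435 cells, a fold change of 2.65 (2.60 to 2.72). CUL3, the scaffold of the ligase that KEAP1 serves, had 2554 and 2211 counts in MDA-MB-231 cells and 3251 and 3473 in MDA-MB-435 cells, fold changes of 1.18 (1.12 to 1.25) and 1.38 (1.31 to 1.45). In the common fit 2 of the 14 rose, SQSTM1 and CUL1, and 1 fell, PALB2, at a log2 fold change of −0.55 (standard error 0.144, adjusted p = 0.0464). The median log2 fold change of the turnover genes was 0.084 in MDA-MB-231 cells and 0.24 in MDA-MB-435 cells, beside −0.011 and −0.015 over all genes tested.

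Of 6 genes that process or degrade NFE2L1, 5 were tested and 0 were called in either line. In the common fit 1, VCP, rose, where 4.39% of all genes did. Of 6 coactivators and partners of NRF2, 0 were called in either line and 1, CREBBP, rose in the common fit at a log2 fold change of 0.61 (standard error 0.123, adjusted p = 0.0163). Of 6 further cap-n-collar and MAF genes, 2 were tested in each line and 0 were called. Among these NFE2L3, the closest relative of NFE2L1, had 4889 and 2808 counts in MDA-MB-231 cells and 1843 and 1323 in MDA-MB-435 cells, fold changes of 0.784 (0.748 to 0.821) and 0.926 (0.862 to 0.994).

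NRF2 target genes were higher after CPYPP where they were called. Of 30 such genes, 28 were tested in MDA-MB-231 cells, with 11 called higher and 0 lower, beside 4.22% and 3.09% of all genes. In MDA-MB-435 cells 27 were tested, with 12 called higher and 0 lower, beside 3.17% and 6.52%. In the common fit 16 of 29 rose and 0 fell, beside 4.39% and 2.85%. The median log2 fold change was 0.67 in MDA-MB-231 cells and 0.85 in MDA-MB-435 cells, and that of the regulators 0.80 and 0.96. The list was drawn up with earlier results of these libraries known, and holds genes that the study named from them, so it is not independent evidence of a direction. The genes with the largest common change were HMOX1, SLC7A11, AKR1B10 and SRXN1. SRXN1, which encodes sulfiredoxin, had 137 and 719 counts in MDA-MB-231 cells and 399 and 2224 in MDA-MB-435 cells, a fold change of 7.16 (5.96 to 8.66) and 7.19 (6.46 to 8.02). AKR1B10, an aldo-keto reductase, had 6 and 80 counts in MDA-MB-231 cells, a fold change of 18.2 (8.0 to 51.1), and 19 and 79 in MDA-MB-435 cells, a fold change of 5.36 (3.22 to 9.37). The fold changes of HMOX1, heme oxygenase-1, were 142 and 138, and those of SLC7A11, the cystine transporter, were 4.75 and 21.0.

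**Figure D5:**
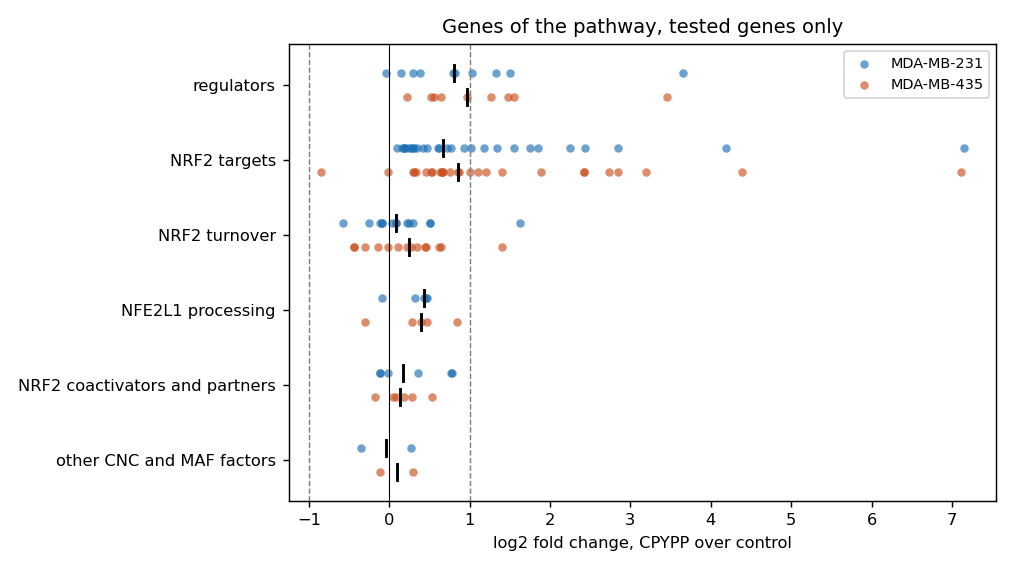
Log2 fold change of CPYPP over control for the tested genes of each list in MDA-MB-231 cells (blue) and MDA-MB-435 (orange), with a black bar at the median and dashed lines at −1 and 1. The regulators have medians of 0.80 and 0.96, the NRF2 targets 0.67 and 0.85, and the turnover genes 0.084 and 0.24.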

How the data were processed

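Poly(A) RNA was sequenced in 4 libraries. The authors deposited whole-number read counts for each gene as counted, together with its exon length in bases. The submitters' processing notes name cutadapt 1.9.1, HISAT2 2.2.1, HTSeq 0.6.1, DESeq2 and GRCh37.p13. However, of 58254 identifiers shared with GENCODE v29, 58196 overlap its GRCh38 positions, so GRCh38 is used here. The strand setting is not given in the sources used here. Whether reads of one gene were counted for a gene that overlaps it, or left out, therefore cannot be told.

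Counts were analysed with edgeR 4.0.16 and DESeq2 1.42.0 in R 4.3.3. TMM factors, computed per line over genes reaching 10 counts in 1 or both of its libraries, lay between 0.950 and 1.05. For fold changes, a floor of 3 counts replaced any count at or below it. The common fit used filterByExpr. The calling and fitting code was tested on simulated data. TPM was formed from the counts and exon lengths, and sequences came from RefSeq. All 10 members are named, as are SQSTM1, CUL3, genes overlapping a member (those left unnamed, against the rule, had at most 16 counts in any library) and, per list, up to 4 called genes with the largest common change. MITF, DCT, KRT18, PALB2, CUL1, VCP, CREBBP, NFE2L3, PRDX1 and ME1 were named after their values were seen. Members and lists were chosen with earlier results of these data known.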

Additional observations from a re-analysis of the deposited data

How the results depend on the processing

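The calls rest on counting error, so the assumed variation between cultures moved them most. When a biological coefficient of variation of 0.2 was assumed, 1 regulator was called higher in MDA-MB-231 cells (OSGIN1) and 3 in MDA-MB-435 cells, where MAFG was lost, and the whole table of MDA-MB-231 cells gave 113 higher and 43 lower genes in place of 694 and 508, that of MDA-MB-435 cells 124 and 147 in place of 524 and 1078. With 0.1 these were 461 and 285, and 399 and 774. With 0.4 they were 4 and 0, and 13 and 1. With 0.4, 0 regulators were called higher in either line, and 1 of the 10 differed over 2-fold between the controls (BACH2). With at least 10 counts in both libraries that number was also 1 (MAFF), since BACH2 then goes untested, and this minimum gave 457 higher and 271 lower genes in MDA-MB-231 cells and 389 and 602 in MDA-MB-435 cells. The call of BACH1 in MDA-MB-231 was lost with total counts and with upper quartile scaling, which left 3 regulators called there. With a fold change over 1.5 in place of 2, the whole table gave 1406 higher and 1095 lower genes in MDA-MB-231 cells, and 1372 and 1883 in MDA-MB-435 cells. Of the regulators 6 were then higher in each line, adding MAFF in both, OSGIN2 in MDA-MB-231 and NFE2L2 in MDA-MB-435. Scaling by total counts moved the median log2 fold change of all tested genes in MDA-MB-435 by −0.15 and upper quartile scaling by −0.11, and the regulators moved with it. Over all genes, the common falls numbered 1087 with total counts, 812 with upper quartile scaling, 850 with a minimum of 1 count and 294 with DESeq2, in place of 478. The common rises over all genes numbered 843, 836, 1046 and 607 in the same order, in place of 737. The genes tested were 16801 with either scaling, 32210 with a minimum of 1 count and 21198 with DESeq2. Among the regulators the common rises numbered 6 with total counts, upper quartile scaling, DESeq2 and a minimum of 1 count, the same 6 genes each time. Without the block for the line 0 passed, with 4 regulators at an unadjusted quasi-likelihood p-value under 0.05, all higher. Over all genes, 167 of 16801 were under 0.05 in that fit, in either direction. Under these alternatives 0 regulators were called lower.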

Other observations

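PRDX1 (ENSG00000117450), which encodes peroxiredoxin 1 and belongs to the list of NRF2 targets, was listed at 0 counts in both libraries of MDA-MB-435 and had 8711 and 7879 counts in MDA-MB-231. ME1, which encodes malic enzyme 1, had 2 and 0 counts in MDA-MB-435 and 1356 and 1687 in MDA-MB-231. Both genes were picked out after their values were seen, and neither was tested for CPYPP in that line.

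DNAJC19P5, a pseudogene inside the NFE2L2 gene model on the same strand, had 11 and 33 counts in MDA-MB-435 and was called higher there, while it had 11 and 7 in MDA-MB-231. ENSG00000264769, which overlaps MAFG on the other strand, had 21 and 42 counts in MDA-MB-435 and was called higher there. MAFG-DT, the divergent neighbour of MAFG, had 55 and 40 counts in MDA-MB-231 cells and 75 and 42 in MDA-MB-435 cells and was called in neither line, with fold changes of 0.993 and 0.722. Whether reads of these genes came from the members they overlap was not tested.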
